A study of Homo sapiens with 27 samples.

Results

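U937 cells that received the glutaminyl cyclase inhibitor PBD150 before lipopolysaccharide (LPS) were compared with untreated U937 cells across all named genes of a one-colour array. Members were chosen by the treatment in the sample titles, which gave 18 of the 27 arrays of the series: 9 arrays of PBD150 plus LPS and 9 of untreated cells. Each group had 3 biological replicates with 3 technical arrays each, averaged first, so that n = 3 on each side. U937 is an established human line, derived from a histiocytic lymphoma, of monocyte-like cells. Untreated cells received neither agent. The other group was held in 10 µM PBD150 for 2 h and then given LPS at 4 µg/ml, and the culture time was 48 h. Cells that received LPS alone at the same dose are given only for orientation. No sample received PBD150 alone, so an effect of PBD150 without LPS was not measured, and the difference from untreated cells described here is that of both agents together. The treatment label calls the cells macrophages and names no differentiating agent.

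LPS is a component of the outer membrane of Gram-negative bacteria. It is handed by CD14 to the receptor complex of TLR4 and LY96, and the signal runs through adaptors such as MYD88 to NF-kB, to MAP kinases and AP-1, and to interferon regulatory factors, which switch on cytokines, chemokines and antiviral genes. Glutaminyl cyclase turns an N-terminal glutamine into pyroglutamate, which protects some secreted proteins from aminopeptidases. QPCT encodes the secreted enzyme and QPCTL the form kept in the Golgi, and the chemokines CCL2, CCL7, CCL8 and CCL13 and fractalkine (CX3CL1) are known substrates. A monocyte-like line that stops dividing and matures is known to lose the genes of cell division and ribosome production and to gain receptors, proteases and lysosomal enzymes of macrophages.

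Values are log2 intensities after quantile normalisation, and changes are PBD150 plus LPS minus untreated on that log2 scale, given with the standard error. Genes are said to rise or fall where the limma test, adjusted over all 30968 probes, was under 0.05. Of 15207 named genes, each represented by its brightest probe, 2326 rose (15.3%) and 2721 fell (17.9%), and these shares are the background for every gene list. Replicate values of the groups did not overlap for 26.9% of named genes in the higher and 27.1% in the lower direction. Of genes named later, IL7R, GBP2, CCL1, MXD1, ITGB7 and OSM were above noise on 1 to 4 of 9 untreated arrays, and CSE1L, DDX18, DEFA4, DLAT, EPSTI1, IL12A, KIF20B, KLF4, MGA, ORC6, URB2 and UTP15 on 1 to 4 of 9 arrays with PBD150 plus LPS, so the sizes of their changes rest on values near background. The rises had a median of 1.28 and the falls a median of -1.62. At least 4-fold changes were found for 508 genes that rose and 916 that fell, and at least 16-fold changes for 82 and 49. The median of all named genes was 0.06. The split between directions depended on scaling: over probes it was 3887 higher and 4174 lower, against 5051 and 3069 on values as deposited (median of named genes 0.25) and 2635 and 4256 with median centring (median -0.07).

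**Figure D1:**
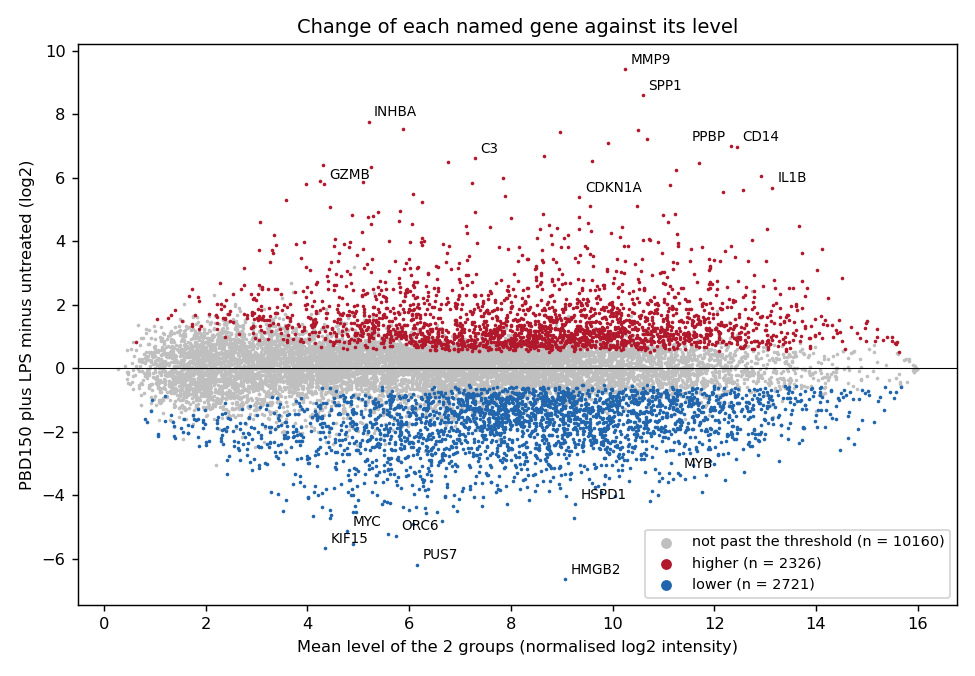
Change of each of 15207 named genes (vertical axis, log2, PBD150 plus LPS minus untreated) against its mean normalised log2 intensity in the 2 groups (horizontal axis). Red points are the 2326 genes that rose, blue points the 2721 that fell and grey points the rest; MMP9, at 9.41, lies highest and HMGB2, at -6.65, lowest.

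The median intensity of an array ranged from 41.5 to 100.3, and its probes exceeded the noise limit in 69.0% to 77.8% of cases. Untreated replicate 1 had the dimmest untreated arrays, with medians of 41.5 to 46.8. The median SD over probes was 0.206 untreated, 0.365 with LPS alone and 0.373 with PBD150 plus LPS, while the fit uses a single spread per probe. Relative to the spread of technical arrays, the median squared difference between cultures was 1.84 and 1.57 for PBD150 plus LPS replicate 3 against the others and 0.793 between those, and 1.46 and 1.63 for LPS replicate 1 (0.549 with no difference). Without PBD150 plus LPS replicate 3, 5051 probes were higher and 4555 lower. Of 13 measured markers of the myeloid line, 12 were above noise on all untreated arrays, and 6 rose and 2 fell. Summed intensity over 7 measured macrophage markers was 2733 to 2904 in untreated replicates and 119424 to 138409 with PBD150 plus LPS. Of these 7 markers 5 rose and none fell. Most of the sum with PBD150 plus LPS came from CD14, ITGAX and ADGRE1, at mean levels of 15.93, 15.36 and 14.36. MSR1 and SIGLEC1 were at 4.18 each. Summed intensity over 9 T lymphocyte markers was 2528 to 2984 untreated and 2467 to 3970 with PBD150 plus LPS, CD2 rose (1 of 9) and the level of CD3D was 11.17 and 11.19. The 3 measured erythroid and megakaryocyte markers held no call and summed to 426 to 542 and 461 to 577. Over 10 markers of fibroblast, endothelium and epithelium the sum was 1299 to 1397 and 3428 to 4947, and DCN, PDGFRB, PECAM1 and EPCAM rose (4 of 10). Of 5 B lymphocyte markers CD79A fell, and of 4 NK lymphocyte markers NCR1 rose. The part of these markers in the results was not tested. In bulk RNA fewer cells of a type and less RNA per cell cannot be told apart, and p-values measure the spread between the cultures labelled as biological replicates. PDGFRB did not pass without untreated replicate 3, PBD150 plus LPS replicate 2 or with median centring (0.79 to 0.85, adjusted p = 0.0523 to 0.0607). The call of NCR1 was lost without untreated replicate 1 or PBD150 plus LPS replicate 2 (0.99 to 1.08, adjusted p = 0.0537 to 0.0577).

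Transcripts of the enzymes that PBD150 inhibits were examined first. QPCTL lay at 5.22, 6.33 and 6.21 in untreated replicates and at 4.77, 4.81 and 5.05 with PBD150 plus LPS, so that all values of the latter were below all of the former. It fell by 1.05 ± 0.30 (adjusted p = 0.0354). QPCT was dim, above noise on 3 of 9 untreated and 5 of 9 PBD150 plus LPS arrays. Its values were 3.81, 2.26 and 2.92 untreated, against 3.61 in the lowest replicate and a mean of 4.15 with PBD150 plus LPS, which overlap, and the difference of 1.16 did not pass (adjusted p = 0.112, 95% interval 0.06 to 2.25). An mRNA level says nothing of enzyme activity, which is what PBD150 inhibits. QPCTL did not pass without untreated replicate 2 or 3, PBD150 plus LPS replicate 1 or 2, LPS replicate 3, on values as deposited or in a fit of the 6 replicates compared alone (-1.05 to -0.81, adjusted p = 0.0503 to 0.156).

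Of the substrate chemokines, CCL2, which draws monocytes through CCR2, was already bright in untreated cells at 12.63, 12.83 and 12.88 and reached 14.41, 14.18 and 15.43. It rose by 1.89 ± 0.32 (adjusted p = 0.0028), and its other probe gave 2.61. CCL8, another monocyte attractant of that family, went from 8.49, 8.35 and 8.62 to 11.14, 10.65 and 11.12. It rose by 2.49 ± 0.48 (adjusted p = 0.00555), with no overlap between the groups. CX3CL1 lay at 4.41, 3.65 and 4.34 untreated and at 4.38, 4.38 and 4.14, a difference of 0.17 (adjusted p = 0.739, 95% interval -0.54 to 0.88). CCL7 and CCL13 had no named probe.

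Secreted proteases of the extracellular matrix held the largest rise of all named genes. MMP9, a gelatinase, lay at 4.89, 5.71 and 6.01 in untreated replicates and at 14.91, 14.64 and 15.31 with PBD150 plus LPS. It rose by 9.41 ± 0.31 (adjusted p = 1.7e-06). MMP1, an interstitial collagenase, rose by 7.21 ± 0.22 (adjusted p = 1.4e-06), from 6.97, 7.14 and 7.13 to 14.03, 14.16 and 14.67. For both proteases every replicate with PBD150 plus LPS lay far above every untreated one. Of 16 measured matrix metalloproteinases 10 rose and none fell, with a median of 1.76 against 0.06 for all named genes. MMP10, a stromelysin, rose by 2.67, MMP25, a membrane-anchored protease of leukocytes, by 2.57 and MMP14, a membrane-anchored collagenase, by 2.10. MMP12, macrophage elastase, also passed, but it was above noise on 0 of 9 untreated and 4 of 9 PBD150 plus LPS arrays and gives no bound on its fold. MMP13 and MMP28 were at 0.82 and 0.59 and did not pass. MMP12 did not pass without untreated replicate 1 or 2, PBD150 plus LPS replicate 2 or 3, with a pseudocount of 16 or with the median of the arrays (0.61 to 2.45, adjusted p = 0.088 to 0.201).

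SPP1 encodes osteopontin, an adhesive cytokine of activated macrophages, and rose by 8.60 ± 0.22 (adjusted p = 7.17e-07). It lay at 6.23, 6.16 and 6.50 untreated and at 14.75, 14.69 and 15.26 with PBD150 plus LPS. With it, 11 of 20 measured TIMPs, ADAMs and matrix proteins rose and none fell (median 0.92). The list included TIMP1, an inhibitor of metalloproteinases, at 2.94, FN1, fibronectin, at 3.15, CD44, a hyaluronan receptor, at 1.98, and ADAMDEC1, a secreted metalloprotease, at 3.99. THBS1, thrombospondin, was above noise on 0 of 9 untreated arrays and rose at least 2.14-fold. RECK, an inhibitor of these proteases, was at -0.64 and did not pass. In the urokinase system PLAUR, the receptor, rose by 4.40, PLAU, the protease, by 1.65 and SERPINB2, its inhibitor, by 0.96. There 5 of 16 rose, 3 of 16 with median centring, without untreated replicate 2 or without untreated replicate 3. F3, tissue factor, was at -1.84 and did not pass. SERPINB2 did not pass without untreated replicate 1, 2 or 3, PBD150 plus LPS replicate 1, 2 or 3, LPS replicate 2, with median centring, with quantile normalisation over 18 arrays or with the median of the arrays (0.74 to 1.07, adjusted p = 0.051 to 0.12).

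**Figure D2:**
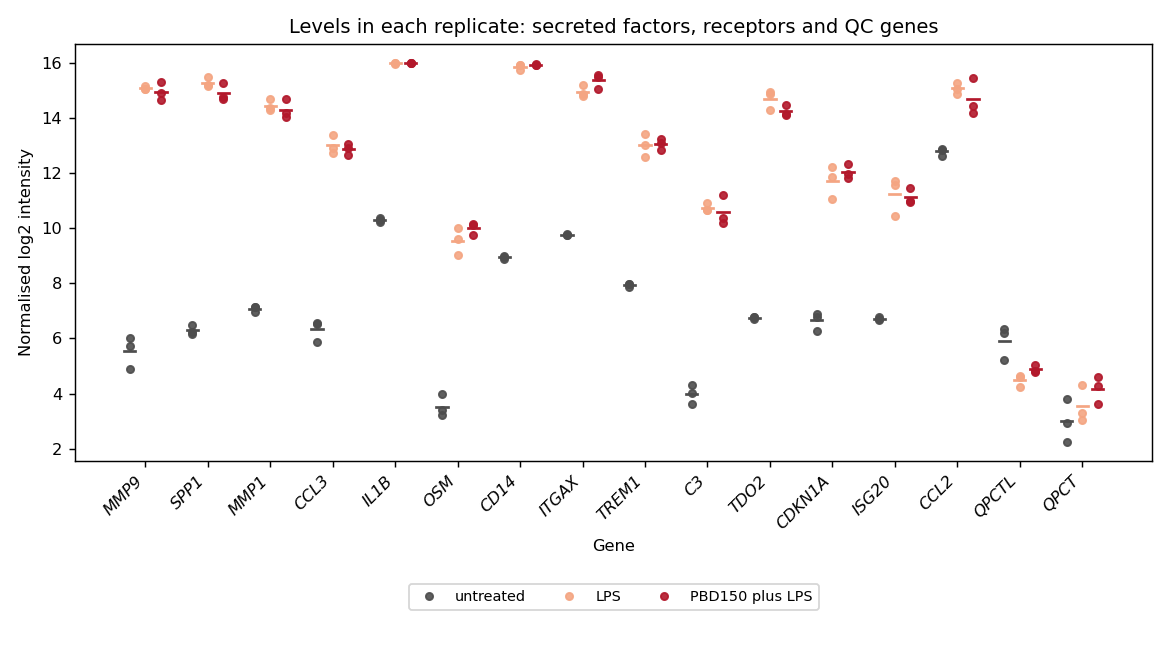
Normalised log2 intensity (vertical axis) of 16 genes in each of 3 replicates of untreated cells (grey), LPS alone (orange) and PBD150 plus LPS (red), with a bar at each group mean. MMP9, SPP1, MMP1 and TDO2 lie between 4.89 and 7.14 in untreated replicates and between 14.03 and 15.31 with PBD150 plus LPS; QPCTL is lower there and QPCT overlaps.

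Among other CC chemokines 5 of 15 measured genes rose and none fell (median 0.87). The count was 8 with array weights or on values as deposited, and 9 with a pseudocount of 16 or with the mean of all probes of a gene. CCL3, an attractant of monocytes and lymphocytes through CCR1, lay at 6.54, 6.57 and 5.88 and then at 12.91, 12.65 and 13.04, and rose by 6.53 ± 0.26 (adjusted p = 4.58e-06). CCL4L2, a copy of the closely related CCL4, is outside this list and rose by 7.45 ± 0.45. Near-identical copies of that gene may share its probe. CCL20, the ligand of CCR6, rose by 3.29, CCL1 by 4.95 and CCL26, an eotaxin, by 4.47. CCL24, another eotaxin, was above noise on 0 of 9 untreated arrays and all 9 of PBD150 plus LPS, and rose at least 4.58-fold. CCL22, CCL17 and CCL5 were at 0.93, 0.89 and 0.44 and did not pass.

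Of 12 CXC chemokines 5 rose and none fell (median 0.79). PPBP, the precursor of a neutrophil-attracting peptide, went from 8.86, 8.73 and 8.89 to 15.67 in the lowest replicate, with 3 of 9 arrays at the top of the scale. It rose by 6.99 ± 0.35, and its other probe gave 9.12. CXCL8, the main neutrophil attractant, was bright already in untreated cells and rose by 2.20 ± 0.20. CXCL16, a membrane-bound scavenger and chemokine, rose by 2.87, CXCL5 by 2.30 and CXCL10, an interferon-induced attractant of T cells, by 1.86. CXCL12 was at -1.29 and CXCL9 and CXCL11 at 0.45 and 0.47, none past the threshold. Of 16 chemoattractant receptors 8 rose (median 1.03), among them receptors of bacterial formyl peptides and complement fragments, FPR1 at 4.03 and C3AR1 at 3.14. CXCR2, a receptor of CXCL8, fell by 1.69 ± 0.26 and was the only member of the list to fall. CCR2, the receptor of CCL2, was at 0.42 and CXCR4 at -0.35, and neither passed.

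Among cytokines, IL1B, the secreted interleukin-1 of macrophages, reached the top of the scale. It lay at 10.35, 10.31 and 10.23 untreated and at 15.98, 15.97 and 15.98, where all 9 arrays were at the top of the scale, so it rose at least 51.3-fold. The antagonist IL1RN rose by 4.14 ± 0.25, the decoy receptor IL1R2 by 3.40 and IL1A by 3.02, so ligands and antagonists of the family were higher together. Of 28 measured interleukins and receptors 14 rose and 2 fell (median 1.17). IL7R rose by 4.06, IL10RA by 3.93, IL13RA1, a receptor chain for interleukin-13, by 3.52 and IL10, an anti-inflammatory cytokine, by 1.76. IL6R fell by 2.50 ± 0.32, from 8.32, 8.50 and 8.42 to 5.46, 5.93 and 6.35. IL12A, a subunit of interleukin-12, fell by 1.59. IL6 was dim in both groups and at 1.05 it did not pass (adjusted p = 0.156), nor did IL23A at 1.22 or IL15 at 1.13.

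Growth and colony-stimulating factors and their receptors had 9 of 20 higher and 2 lower (median 0.63). INHBA, the subunit of activin A, was above noise on 0 of 9 untreated arrays and at 9.19, 8.78 and 9.29 with PBD150 plus LPS. It rose at least 32.8-fold, and its other probe gave 1.95. OSM, oncostatin M, lay at 3.98, 3.39 and 3.21 and then at 9.76, 10.10 and 10.16, a rise of 6.48 ± 0.31 (adjusted p = 7.39e-06). CSF1R, the receptor on which macrophages depend, rose by 4.77, HBEGF, a ligand of the EGF receptor, by 2.60 and CSF3, the granulocyte factor, by 2.22. TGFB1 fell by 1.08 and VEGFA fell by 0.94. In the TNF superfamily 7 of 23 rose and 3 fell (median 0.52). TNFRSF9, the costimulatory receptor 4-1BB, was above noise on 0 of 9 untreated arrays and rose at least 8.96-fold. The TNF receptors went in opposite directions, with TNFRSF1B at 3.64 and TNFRSF1A at -1.41. The death receptor TNFRSF10B was above noise on 7 of 9 untreated and 0 of 9 PBD150 plus LPS arrays and fell at least 1.4-fold. TNF had no named probe. TGFB1 did not pass without untreated replicate 1, 2 or 3, PBD150 plus LPS replicate 1 or 3, LPS replicate 1, 2 or 3, on values as deposited or in a fit of the 6 replicates compared alone (-1.22 to -0.72, adjusted p = 0.0566 to 0.14). The call of VEGFA was lost without untreated replicate 1, 2 or 3, PBD150 plus LPS replicate 1 or 2, on values as deposited or with the median of the arrays (-1.03 to -0.71, adjusted p = 0.0546 to 0.11).

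In the LPS receptor complex the co-receptors rose and TLR4 did not pass. CD14 lay at 8.99, 8.96 and 8.88 untreated and at 15.94, 15.92 and 15.92, with 8 of 9 arrays at the top of the scale, and rose by 6.98 ± 0.16 (adjusted p = 7.17e-07). LY96, the protein that binds LPS beside TLR4, rose by 3.17 ± 0.22 and the adaptor MYD88 by 1.37. TLR4 lay at 8.27, 8.37 and 7.93 and then at 7.94, 7.71 and 7.85, a difference of -0.36 (adjusted p = 0.225, 95% interval -0.82 to 0.10). MAP3K7, the kinase TAK1 that joins the receptor to NF-kB, fell by 1.30. Of 17 members of the complex and its adaptors 3 rose and 1 fell (median 0.43), a share near the background. The count of rises was 9 with a random block for each culture, 8 with array weights, 6 with a pseudocount of 16 or without LPS replicate 1, and 5 without the dimmest 25% of probes. MAP3K7 did not pass with the mean of its probes (-0.74, adjusted p = 0.233).

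Of 17 other Toll-like and NOD receptors and inflammasome parts 12 rose and none fell (median 1.08), a count of 7 without PBD150 plus LPS replicate 2. TLR1, which pairs with TLR2 on lipopeptides, rose by 4.73 ± 0.22 from 5.37, 5.83 and 5.68 to 10.62, 10.03 and 10.43. Its partners TLR6 and TLR2 rose by 2.97 and 2.27, the inflammasome sensors NLRC4 and AIM2 by 2.20 and 1.93, their adaptor PYCARD by 1.42 and CASP1 by 1.01. NLRP3 and NOD1 were at 0.41 and -0.03 and did not pass.

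NF-kB is held in the cytoplasm by IkB proteins, and among its known targets are its own inhibitors. Of 21 measured subunits and feedback inhibitors 13 rose and none fell (median 1.15). NFKBIZ, a nuclear IkB protein that LPS is known to induce, lay at 7.76, 7.71 and 7.34 untreated and at 11.12, 11.43 and 11.61, and rose by 3.78 ± 0.21 (adjusted p = 1.75e-05). BCL3, a nuclear IkB protein, rose by 3.82, the subunit RELB by 3.58, TNFAIP3, a deubiquitinase that ends the signal, by 3.39, TNIP1, its partner, by 3.06 and NFKBIA by 2.25. The subunits REL and NFKB1 were both at -0.62 and RELA at 0.35, and none of these 3 passed. The promoter of NFKBIZ (GRCh38.p14, chr3:101827740-101828039, plus strand, RefSeq) is shown because it holds a kappaB match (GGGA, any 2 bases, TTCC), in capitals, which begins 223 bases before the annotated start.
NFKBIZ: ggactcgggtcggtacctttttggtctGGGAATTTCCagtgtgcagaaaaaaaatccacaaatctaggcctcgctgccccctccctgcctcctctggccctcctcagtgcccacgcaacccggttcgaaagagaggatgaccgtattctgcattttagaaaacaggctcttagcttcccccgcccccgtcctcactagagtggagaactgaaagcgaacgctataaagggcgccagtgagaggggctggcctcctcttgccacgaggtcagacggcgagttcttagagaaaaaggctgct
On either strand these letters were found in 26.5% of 34 promoters of the NF-kB list, against 1.61% of all 35116 promoters of the same 300 bases. Of 18 members with a promoter 9 held them. Apart from any on a chromosome that was set aside, the members that rose and held them were CYLD, NFKB2, NFKBIA, NFKBIZ, TNFAIP3 and TNIP1. Over the whole array the share was 1.53% for promoters of named genes, 1.7% for those of genes that rose and 1.08% for those that fell. A match is a run of letters, not a shown binding site. NFKB2 did not pass without untreated replicate 2 or 3, PBD150 plus LPS replicate 1 or 2, with median centring or with the median of the arrays (0.68 to 0.77, adjusted p = 0.0716 to 0.124).

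The immediate-early factors divided. Of 18 measured AP-1 and related factors 7 rose and 2 fell (median 0.58), and the share that fell was not above the background. JUN rose by 1.94, FOSL2 and ATF3 by 1.58 each and KLF6 by 1.09. FOS passed at 1.38, and the technical arrays of a culture spread by 5.42 for it; the median of the 3 arrays in place of their mean gave 1.83. EGR1, a factor induced by growth signals, fell by 3.36 ± 0.24 (adjusted p = 4.53e-05), from 11.40, 11.81 and 11.41 to 8.12, 7.97 and 8.44, and KLF4 fell by 2.00. Of 11 MAP kinase phosphatases, which switch such signals off, 5 rose, and 3 rose without PBD150 plus LPS replicate 1 or without any of the untreated replicates. DUSP2 fell by 3.78 ± 0.21, while DUSP16 and DUSP1 rose by 1.63 and 1.20. FOS did not pass without untreated replicate 1, 2 or 3, PBD150 plus LPS replicate 1 or 3, LPS replicate 2, with median centring, in a fit of the 6 replicates compared alone or with a random block (1.07 to 1.43, adjusted p = 0.0532 to 0.122). The call of KLF4 was lost without untreated replicate 1 or 2 or PBD150 plus LPS replicate 1 or 2 (-2.14 to -1.62, adjusted p = 0.0545 to 0.0937).

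Interferon-stimulated genes, which restrict viruses, had 15 of 33 higher and 2 lower (median 1.21). ISG20, an exonuclease of viral RNA, lay at 6.71, 6.76 and 6.67 untreated and at 11.46, 10.98 and 10.94, and rose by 4.41 ± 0.34 (adjusted p = 6.3e-05). OASL rose by 4.10, the ubiquitin-like ISG15 by 3.93, the GTPase GBP2 by 3.86, IFI6 by 3.59 and IFIT1, which binds foreign RNA caps, by 2.29. MX2 fell by 0.58 ± 0.16 from 11.49, 11.38 and 11.49 to 10.89, 10.81 and 10.92, and EPSTI1 fell by 1.37, while its other probe gave 0.49. BST2 and HERC5 were at -0.53 and -0.72 and did not pass, so the list was not uniform. The ISG20 promoter (GRCh38.p14, chr15:88638766-88639065, plus strand, RefSeq) is shown with a match to the interferon-stimulated response element (GAAA, any 2 bases, GAAA), in capitals, which begins 69 bases before the start.
ISG20: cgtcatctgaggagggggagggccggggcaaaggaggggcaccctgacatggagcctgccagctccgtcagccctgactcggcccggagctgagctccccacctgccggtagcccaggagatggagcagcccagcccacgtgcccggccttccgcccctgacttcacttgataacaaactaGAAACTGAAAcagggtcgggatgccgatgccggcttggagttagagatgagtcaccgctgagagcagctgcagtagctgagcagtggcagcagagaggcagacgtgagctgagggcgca
It also holds CACGTG in lower case, apart from the marked match. Of 30 promoters of the list 80% held the response element on either strand, against 3.57% of all promoters, and 20 of 24 members with a promoter held it. Over the whole array the share was 2.98% for promoters of named genes, 2.99% for genes that rose and 2.98% for those that fell. EPSTI1, which fell, held the element as well. MX2 did not pass without untreated replicate 1, 2 or 3, PBD150 plus LPS replicate 1 or 2 or on values as deposited (-0.62 to -0.48, adjusted p = 0.0663 to 0.146). The call of EPSTI1 was lost without untreated replicate 2 or PBD150 plus LPS replicate 1 (-1.24 to -1.22, adjusted p = 0.0519 to 0.0548).

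Of 25 interferon receptors, STATs and IRFs 8 rose and none fell (median 0.77): 13 rose with array weights or with the mean of all probes, 5 without PBD150 plus LPS replicate 2, and 4 without untreated replicate 2 or without untreated replicate 3. IRF7, which drives interferon genes, rose by 3.36 ± 0.24, IRF9, part of the factor that binds the response element, by 2.77. STAT2 and STAT3 were at 0.37 and 0.45 and did not pass. In antigen presentation 5 of 12 rose. The count was 8 on values as deposited or without LPS replicate 1, 3 with median centring, without untreated replicate 2 or without untreated replicate 3, and 2 without PBD150 plus LPS replicate 2. CD86, a costimulatory ligand of T cells, went from a mean of 5.18 to 10.61 with no overlap and rose by 5.42 ± 0.25, and CD1C, which presents lipids, rose by 2.31. HLA-DRB1 was at 1.09 and CD74 at 0.02 and neither passed.

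Surface receptors of mature macrophages had 16 of 25 higher and 1 lower (median 1.18). ADGRE1, an adhesion receptor used as a macrophage marker, lay at 8.12, 8.04 and 8.20 untreated and at 14.57, 14.16 and 14.35, and rose by 6.24 ± 0.19 (adjusted p = 1.4e-06). CD300A, an inhibitory receptor, rose by 3.14, OLR1, a receptor of oxidised lipoprotein, by 2.46, and CD163, the haemoglobin scavenger, by 2.11. CD9, a tetraspanin, fell by 1.74, and MSR1 and AXL were at 0.60 and 0.58 and did not pass. Of 16 integrins 6 rose (median 0.72): ITGAX (CD11c) by 5.60, ITGAM (CD11b) by 4.27, ITGAL by 3.31 and their shared partner ITGB2 by 1.67, and the beta chains ITGB7 by 4.63 and ITGB5 by 4.06. ITGA4, a chain that binds vascular ligands, fell by 1.25. ITGA4 did not pass without untreated replicate 1, 2 or 3, PBD150 plus LPS replicate 1 or on values as deposited (-1.28 to -0.98, adjusted p = 0.0548 to 0.0902).

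Fc receptors and their signalling adaptors had 9 of 15 higher and none lower (median 1.14). TREM1, an amplifier of inflammation, rose by 5.11 ± 0.24 from 7.98, 7.96 and 7.87 to 13.07, 12.82 and 13.24. Its adaptor TYROBP rose by 4.49, with 8 of 9 arrays at the top of the scale, TREM2 by 3.45, FCGR2A, an IgG receptor, by 3.86 and FCER1G by 2.53. Of 22 C-type lectins, SIGLECs and LILRs 12 rose and none fell (median 1.23), with CLEC4A at 5.82, PILRA at 5.77, CD209 at 4.44, and the inhibitory LILRB1 and LILRB2 at 3.83 and 3.23. LILRA3, a soluble LILR outside this list, rose by 6.68 ± 0.25.

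Myeloid transcription factors divided, with 9 of 25 higher and 4 lower, the latter a share near the background. The count of rises was 15 with a random block or array weights, 14 with a pseudocount of 16, and 5 with median centring, without PBD150 plus LPS replicate 1 or 2, or without untreated replicate 1 or 3. The nuclear receptors NR4A3 and NR4A2 rose by 2.58 and 1.86 and CEBPB, a factor of macrophage activation, by 1.40. MYB, which keeps blood progenitors immature, lay at 12.72, 13.12 and 12.99 untreated and at 9.46, 9.64 and 9.84, and fell by 3.30 ± 0.34 (adjusted p = 0.000237). GFI1, a repressor of granulocyte precursors, fell by 3.10, ID1 fell by 1.96 and HHEX fell by 1.85. SPI1, the master factor of myeloid cells, was at 0.09 (95% interval -0.47 to 0.65) and did not pass.

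Of 20 S100 proteins and annexins 12 rose and 1 fell (median 0.94). S100A12, a calcium-binding alarmin, lay at 6.39, 6.41 and 6.34 and then at 13.52, 13.13 and 13.72, a rise of 7.08 ± 0.30 (adjusted p = 6.03e-06), and S100A9 rose by 6.04 ± 0.15 with 7 of 9 arrays at the top. S100A8, the partner of S100A9, showed a disagreement between technical arrays. In each PBD150 plus LPS culture 1 array read 10.8, 11.4 or 17.1 intensity units and the other 2 arrays read 50365 to 68490. Untreated replicate 2 had 1 such array, at -7.94 against 309 and 376, and LPS replicate 2 had 1, at 16.2 against 57399 and 63270. With the mean of the arrays S100A8 rose by 4.33 ± 1.15 (adjusted p = 0.0244), and with their median by 7.53. A spread over 4 on the log2 scale within a culture, with a level over 8, was found for 44 named genes, 7 of them called: S100A8, FOS, BLM, CLSPN, DEPDC1B, MRPL39 and UQCRC1. S100A8 did not pass without untreated replicate 2, PBD150 plus LPS replicate 1, 2 or 3 or with a random block (3.45 to 4.41, adjusted p = 0.0566 to 0.274). The call of CLSPN was lost with a random block or with the median of the arrays (-1.10 to -0.60, adjusted p = 0.095 to 0.149). UQCRC1 did not pass without untreated replicate 1, 2 or 3, PBD150 plus LPS replicate 1 or 2, LPS replicate 1 or 2, on values as deposited, in a fit of the 6 replicates compared alone or with a random block (-1.94 to -1.06, adjusted p = 0.0534 to 0.107).

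Complement and soluble recognition genes had 7 of 15 higher and none lower (median 1.06). C3, the central component, went from 4.31, 4.04 and 3.61 to 10.20, 10.37 and 11.21 and rose by 6.61 ± 0.30 (adjusted p = 7.3e-06), properdin (CFP) rose by 4.44 and factor D (CFD) by 3.33. C1QA was above noise on 0 of 9 untreated arrays and rose at least 4.23-fold. Granule proteins, which immature myeloid cells make, divided. PRTN3, proteinase 3, lay at 11.94, 12.07 and 12.13 and then at 8.26, 7.89 and 7.94, and fell by 4.02 ± 0.17 (adjusted p = 6.34e-06). DEFA4, a defensin, fell by 2.94, and ELANE, neutrophil elastase, fell by 0.95 from a level where 8 of 9 untreated arrays were at the top of the scale. RNASE6, CAMP, BPI and PRG2 rose by 4.51, 3.39, 2.06 and 1.36, and LYZ and MPO were at -0.44 and -0.50 and did not pass. The 16 measured granule genes thus counted 4 higher and 3 lower, with a median of -0.22, and the share that fell was near the background.

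Lysosomal genes had 14 of 27 higher and 1 lower (4 lower with a random block; median 0.83), with PSAP, the saposin precursor, at 2.85 and 8 of 9 arrays at the top, CTSB at 2.77, GAA, the acid glucosidase, at 2.42 and CTSS at 2.00. ATP6V0D2, a subunit of the proton pump, was above noise on 0 of 9 untreated arrays and rose at least 2.51-fold, and NPC1, a cholesterol transporter, fell by 1.55. Among genes of cytotoxic granules GZMB, granzyme B, was above noise on 1 of 9 untreated and all 9 PBD150 plus LPS arrays and rose, NKG7 and GNLY rose by 0.97 and 0.94, and GZMA fell by 1.75, which made 3 of 9 higher and 1 lower. NPC1 did not pass without untreated replicate 2 or with the median of the arrays (-1.59 to -1.44, adjusted p = 0.0551 to 0.0761). The call of GNLY was lost without untreated replicate 1, 2 or 3, PBD150 plus LPS replicate 1 or 2, LPS replicate 2 or 3, with median centring or with the median of the arrays (0.69 to 0.99, adjusted p = 0.0505 to 0.144).

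Tryptophan is broken down along the kynurenine pathway. TDO2, which opens the ring and is best known from liver, lay at 6.78, 6.69 and 6.77 and then at 14.11, 14.14 and 14.48, and rose by 7.49 ± 0.22 (adjusted p = 1.14e-06). The downstream enzymes KYNU, QPRT and KMO rose by 3.33, 2.12 and 1.90, and IDO1, the inducible opener of the ring, by 1.27. The importer SLC7A5 fell by 1.36. Of 15 measured members 7 rose and 1 fell (median 0.78). In prostaglandin and leukotriene synthesis PTGS2, the inducible cyclooxygenase, rose by 4.01 ± 0.56, from 2.76, 4.17 and 3.91 to 7.13, 6.89 and 8.85, and ALOX5AP, the activator of 5-lipoxygenase, by 3.09, while the receptor PTGER2 fell by 2.90 and the synthase PTGES3 fell by 2.03. The 16 measured genes counted 3 higher and 2 lower, shares near the background. The falls were 7 with a random block, 6 with array weights, and 4 in a fit of the 6 replicates alone, without LPS replicate 1 or without PBD150 plus LPS replicate 3.

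In lipid handling ABCA1, the cholesterol exporter, rose by 4.93 ± 0.24 from 4.55, 4.96 and 4.99 to 9.49, 9.71 and 10.09, with NCEH1 at 1.96 and the receptor NR1H3 at 1.43. These were the 3 of 15 LXR targets and efflux genes that rose, a share near the background. With a random block or array weights 5 rose, and ABCG1 and APOE were at 0.52 and 0.33 and did not pass. Of 19 genes of cholesterol synthesis 5 fell and 3 rose, and 2 fell on values as deposited or without untreated replicate 2 and 3 without untreated replicate 1 or 3 or PBD150 plus LPS replicate 1 or 2. INSIG1 fell by 1.62 and IDI1 fell by 1.51, and SREBF1 rose by 1.68. The acyl-CoA synthetases divided: ACSL4 rose by 2.55, ACSL3 fell by 1.87 and ACSL5 fell by 1.95. DGAT2, which makes triglyceride, rose by 1.85, and of 22 genes of fatty acid activation and storage 5 rose and 2 fell (4 with a random block, array weights, a pseudocount of 16 or without LPS replicate 1). ACSL3 did not pass without untreated replicate 1, 2 or 3 or PBD150 plus LPS replicate 1 or 2 (-1.90 to -1.60, adjusted p = 0.0532 to 0.0737).

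Of the genes that make or remove oxidants, SOD2, the mitochondrial dismutase that NF-kB is known to induce, rose by 2.65 ± 0.34, and RAC2, a subunit of the NADPH oxidase, by 1.65. PRDX3, the mitochondrial peroxiredoxin, fell by 2.25, PRDX4 fell by 1.51 and SOD1 fell by 1.06, and the list counted 3 of 16 higher and 5 lower. NRF2 targets had 7 of 18 lower and 2 higher, but 1 lower on values as deposited, 2 without untreated replicate 2, 3 without PBD150 plus LPS replicate 1 and 4 without untreated replicate 3. GSR, glutathione reductase, fell by 1.99 ± 0.29, GCLM fell by 1.77, and HMOX1 was at 0.10 and did not pass. Of 21 glycolysis genes 4 were higher and 3 lower, shares near the background. There 1 rose without PBD150 plus LPS replicate 1 or without untreated replicate 2 or 3, and 2 rose with median centring or without PBD150 plus LPS replicate 2 or untreated replicate 1. The falls were 1 on values as deposited and 6 with array weights, a random block or without PBD150 plus LPS replicate 3. HK3, a myeloid hexokinase, rose by 2.41 and HK2 fell by 0.96. In iron handling 3 of 15 rose, a share near the background, and 1 rose without untreated replicate 1 or 2. The iron exporter SLC40A1 fell by 1.36, and with a random block or array weights 3 genes of the list fell. Of 9 metallothioneins and zinc transporters 3 fell and 1 rose: the zinc importer SLC39A8 fell by 1.77, and SLC39A1 rose by 1.01. GCLM did not pass without untreated replicate 2 or 3, PBD150 plus LPS replicate 1 or 2 or on values as deposited (-1.67 to -1.46, adjusted p = 0.0632 to 0.0882). The call of HK3 was lost without untreated replicate 2 or 3, PBD150 plus LPS replicate 1, 2 or 3 or with the median of the arrays (2.12 to 2.54, adjusted p = 0.0638 to 0.0981). SLC39A8 did not pass without untreated replicate 2 or 3 or PBD150 plus LPS replicate 1 or 2 (-1.80 to -1.56, adjusted p = 0.0556 to 0.0742). The call of SLC39A1 was lost without untreated replicate 1, 2 or 3 or PBD150 plus LPS replicate 1 or 2 (0.98 to 1.05, adjusted p = 0.0716 to 0.0898).

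The falls were led by genes of cell growth and division. MYC, which drives ribosome production, lay at 6.80, 7.66 and 7.59 in untreated replicates and at 1.65, 2.01 and 2.98 with PBD150 plus LPS, where it was above noise on 1 of 9 arrays. It fell by 5.13 ± 0.45 (adjusted p = 0.000116). The MYC antagonists MXD1, MXI1 and MXD4 rose by 2.58, 1.31 and 1.10, MGA fell by 2.09, and MAX, the shared partner, was at 0.00 and did not pass. The 13 measured members of this network counted 4 higher and 2 lower. MGA did not pass without untreated replicate 1, 2 or 3 or PBD150 plus LPS replicate 1 or 2 (-2.29 to -1.72, adjusted p = 0.0506 to 0.0962).

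Of 31 measured nucleolar factors of ribosome biogenesis 29 fell and none rose, with a median of -2.56 against 0.06 for all named genes. DDX21, an RNA helicase of the nucleolus, lay at 12.90, 12.91 and 12.88 untreated and at 8.68, 8.94 and 9.09, and fell by 3.99 ± 0.20 (adjusted p = 1.07e-05). DDX18 fell by 4.35, UTP15 fell by 4.17, NIP7 fell by 4.06, RRS1 fell by 3.97, NOLC1 fell by 3.56 and NCL, nucleolin, fell by 3.03. The exceptions were UBTF at -0.38, which did not pass, and UTP20 at 0.69, which did not pass either and whose other probe gave -4.82. The DDX21 promoter (GRCh38.p14, chr10:68956397-68956696, plus strand, RefSeq) is shown because it holds the E-box letters CACGTG, in capitals, which MYC and MAX are known to bind. They begin 31 bases before the start.
DDX21: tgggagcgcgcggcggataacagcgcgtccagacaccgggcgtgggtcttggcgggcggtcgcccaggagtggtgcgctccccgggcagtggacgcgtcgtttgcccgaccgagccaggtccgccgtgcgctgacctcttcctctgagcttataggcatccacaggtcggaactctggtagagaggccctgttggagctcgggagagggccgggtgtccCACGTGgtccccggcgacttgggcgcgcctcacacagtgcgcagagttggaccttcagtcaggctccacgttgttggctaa
The letters were found in 37.5% of 32 promoters of this list, in 11.9% of promoters of genes that fell, in 6.93% of those that rose and in 7.26% of all promoters. For promoters of the named genes of the array the share was 8.45%.

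Outside that list PUS7, which makes pseudouridine in RNA, lay at 9.06, 9.38 and 9.30 and then at 2.42, 2.04 and 4.70, where it was above noise on 2 of 9 arrays with technical arrays up to 4.48 apart, and fell by 6.19 ± 0.65. RPP40, a subunit of RNase P, fell by 4.72 ± 0.21, from 11.51, 11.61 and 11.71 to 6.86, 6.58 and 7.20, and the ribosome factors URB2 and CCDC86 fell by 4.91 and 4.80. Mitochondrial ribosomal proteins had 27 of 28 lower and none higher (median -1.84), with MRPL19 at -3.24, MRPL32 at -3.19, MRPS7 at -3.10 and MRPS27 at -3.07. MRPL39 had the lowest value, -3.55, and its other probe gave 0.40. MRPL16 was at -0.02 and did not pass. Of 10 measured cytosolic ribosomal proteins 7 fell, 4 of 10 without untreated replicate 1 or 2, and RPL13 fell by 2.58 while its other probe gave -0.11.

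Of 25 initiation factors 17 fell (median -1.13), EIF5B fell by 2.66 and EIF3B fell by 2.62. The count was 11 on values as deposited and 9 without PBD150 plus LPS replicate 2 or untreated replicate 2 or 3. EIF4E, which binds the mRNA cap, went the other way and rose by 2.43 ± 0.26. Of 13 aminoacyl-tRNA synthetases 9 fell and none rose (median -1.54), LARS1 fell by 2.62 and IARS1 fell by 2.57. HSPD1, the chaperonin of mitochondria, lay at 11.39, 11.27 and 11.56 and then at 7.21, 6.88 and 7.28, and fell by 4.28 ± 0.38 (adjusted p = 0.000123), and its partner HSPE1 fell by 2.89. All 8 subunits of the cytosolic CCT ring, which folds actin and tubulin, fell (median -1.58), CCT2 most with -3.48. Of 15 heat shock chaperones 9 fell and 1, BAG3, rose by 0.79. HSPB1 was at -0.06 and did not pass. BAG3 did not pass without untreated replicate 2 or with median centring (0.56 to 0.75, adjusted p = 0.0558 to 0.178).

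**Figure D3:**
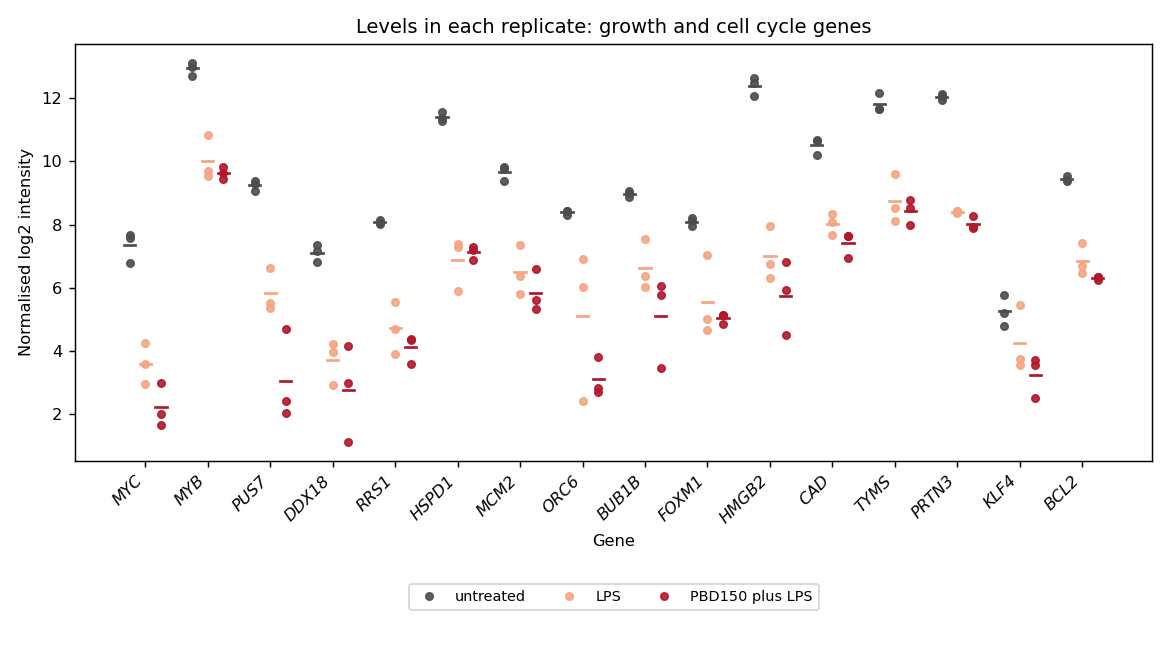
Normalised log2 intensity (vertical axis) of 16 genes of growth, division and immature myeloid cells in each of 3 replicates of untreated cells (grey), LPS alone (orange) and PBD150 plus LPS (red), with a bar at each group mean. For each gene the 3 untreated values lie above the 3 values with PBD150 plus LPS; MYC goes from 6.80 to 7.66 down to 1.65 to 2.98.

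Precursor synthesis, RNA processing and nuclear transport fell as well. Of 25 enzymes of purine and pyrimidine synthesis 21 fell and none rose (median -2.08). TYMS, thymidylate synthase, lay at 11.66, 11.67 and 12.17 and then at 8.00, 8.52 and 8.79 and fell by 3.40 ± 0.39. CTPS1 fell by 3.29, CAD, which opens pyrimidine synthesis, fell by 3.11 and DHODH fell by 3.05. IMPDH1 was at 0.23 and did not pass, whereas its relative IMPDH2 fell by 2.92. Of 33 splicing factors and hnRNPs 22 fell and none rose (median -1.73), with SNRPD1 at -3.73, SF3A3 at -3.26 and SRSF1 at -2.93. Of 28 nuclear pore and transport genes 26 fell and none rose (median -2.25), with CSE1L, an exporter of importins, at -4.24 and RCC1, the exchange factor of the RAN GTPase, at -4.15.

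Proteasome genes fell in 15 of 27 (median -0.73), 8 of 27 on values as deposited or without PBD150 plus LPS replicate 1 or untreated replicate 2 or 3. PSMD14 fell by 2.45 and PSMD4 rose by 1.66. Of 18 genes of the tricarboxylic acid cycle 9 fell and none rose (median -0.88), DLAT of the pyruvate dehydrogenase complex fell by 2.98, ACLY, which makes cytosolic acetyl-CoA, fell by 1.59, CS, citrate synthase, fell by 1.35 and SDHB fell by 1.39. Of 26 genes of oxidative phosphorylation 8 fell and 1 rose (median -0.73). The count was 13 with array weights, a random block or without LPS replicate 1, 5 without untreated replicate 3, and 4 on values as deposited, without untreated replicate 1 or 2, or without PBD150 plus LPS replicate 1 or 2. CYCS, cytochrome c, fell by 1.89, and COX4I1 was at 0.20 and did not pass.

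DNA replication starts where the MCM helicase is loaded on origins. Of 23 measured loading and helicase genes 19 fell and none rose (median -2.66), and 3 of the 4 others, MCM5, CDC6 and GINS3, were not above background in either group. MCM2 lay at 9.38, 9.75 and 9.83 untreated and at 5.60, 5.33 and 6.58, and fell by 3.82 ± 0.45 (adjusted p = 0.000449). ORC6, a subunit of the origin recognition complex, fell by 5.28 ± 0.99 to values of 2.83, 3.81 and 2.69, of which 2 of 9 arrays were above noise. GINS2, a part of the active helicase, fell by 3.64 ± 0.22 (adjusted p = 2.27e-05), from 11.68, 11.61 and 11.69 to 8.25, 7.83 and 7.98. Its promoter (GRCh38.p14, chr16:85688905-85689204, minus strand, RefSeq, written in the direction of the gene) is shown because it holds, in capitals, the E2F letters TTTCCCGC read on the opposite strand, 31 bases before the start.
GINS2: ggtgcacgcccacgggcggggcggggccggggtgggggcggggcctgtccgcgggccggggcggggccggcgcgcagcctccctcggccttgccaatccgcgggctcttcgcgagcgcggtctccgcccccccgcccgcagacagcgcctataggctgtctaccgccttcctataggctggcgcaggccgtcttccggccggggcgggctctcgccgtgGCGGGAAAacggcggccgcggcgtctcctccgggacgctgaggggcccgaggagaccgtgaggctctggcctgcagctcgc
Either E2F form searched, TTTCCCGC or TTTGGCGC on both strands, was found in 46.2% of 26 promoters of this list, in 5.58% of promoters of genes that fell, in 1.7% of those that rose and in 2.27% of all promoters. For promoters of the named genes of the array the share was 2.93%.

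Polymerases and fork factors had 18 of 23 lower (median -1.68), with TIPIN at -3.38, POLA1 at -3.16 and RFC3 at -2.88. POLE rose by 0.85, while its other probe gave -0.36. PCNA, the sliding clamp, was at the top of the scale on all untreated arrays and fell at least 3.23-fold. CLSPN passed at -1.10 and no longer with the median of the 3 arrays of a culture, at -0.60 (adjusted p = 0.149). Of 20 repair and checkpoint genes 17 fell and none rose (median -1.98), with RAD51AP1 at -4.07, the checkpoint kinase CHEK1 at -3.43, EXO1 at -3.21 and FANCI at -2.99. ATM and BRCA2 were at 0.04 and 0.65 and did not pass. POLE did not pass without untreated replicate 1, 2 or 3, PBD150 plus LPS replicate 1 or 2, LPS replicate 2, with median centring, in a fit of the 6 replicates compared alone or with the mean of its probes (0.24 to 0.88, adjusted p = 0.0525 to 0.502).

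Of 35 genes of the spindle, its checkpoint and condensin 33 fell and none rose (median -2.53). BUB1B, a checkpoint kinase at the kinetochore, lay at 8.99, 9.05 and 8.87 untreated and at 5.77, 3.46 and 6.07, and fell by 3.87 ± 0.67 (adjusted p = 0.00328). NCAPH, of condensin, fell by 3.88, BUB1 fell by 3.67, PLK4 fell by 3.56 and the mitotic kinase PLK1 fell by 2.79. UBE2C and INCENP were at -0.35 and -0.42 and did not pass. The promoter of BUB1B (GRCh38.p14, chr15:40160819-40161118, plus strand, RefSeq) is shown for the letters TTTGAA, in capitals, of the cell cycle homology region (CHR) known from late cell cycle genes, 23 bases before the start.
BUB1B: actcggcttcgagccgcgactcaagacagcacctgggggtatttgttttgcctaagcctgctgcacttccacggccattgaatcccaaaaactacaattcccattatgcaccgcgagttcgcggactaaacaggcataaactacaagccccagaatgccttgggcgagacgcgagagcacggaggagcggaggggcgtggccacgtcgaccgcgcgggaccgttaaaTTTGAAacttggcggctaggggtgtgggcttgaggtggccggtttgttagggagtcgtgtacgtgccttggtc
So short a motif is common, in 15.2% of all promoters. It was found in 50% of 36 promoters of this list, in 12.7% of promoters of genes that fell and in 10.7% of those that rose. For promoters of the named genes of the array the share was 11.9%.

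Kinesins, the motors of the spindle, had 13 of 17 lower (median -1.87). KIF15 was above noise on 0 of 9 PBD150 plus LPS arrays and fell at least 8.57-fold, KIF20B fell by 4.28 and KIF23 fell by 3.40. KIF13B rose by 1.99, and KIF3A, of intracellular transport, was at 0.41 and did not pass. Cyclins and their kinases had 13 of 19 lower (median -1.65), with CCNA2, cyclin A2, at -3.73, CCNE1 at -3.29 and CDK4 at -2.21. CCND3, cyclin D3, rose by 0.79 to a level where 8 of 9 arrays were at the top of the scale.

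CDKN1A, which encodes the cyclin-dependent kinase inhibitor p21, lay at 6.27, 6.79 and 6.90 untreated and at 11.98, 11.83 and 12.33, and rose by 5.39 ± 0.32 (adjusted p = 2.2e-05), and CDKN2B, which encodes p15, rose by 3.23. Within the family of E2F factors and partners E2F5 was above noise on 0 of 9 PBD150 plus LPS arrays and fell at least 6.46-fold, E2F8 fell by 3.32, FOXM1, the activator of mitotic genes, fell by 3.06 and TFDP1 fell by 2.44, while E2F1 was at 0.08 and did not pass. These 23 inhibitors, RB proteins and E2Fs counted 4 higher and 10 lower (median -0.66).

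In the BCL2 family BCL2, which restrains cell death, fell by 3.13 ± 0.25 from 9.53, 9.38 and 9.41 to 6.25, 6.35 and 6.34, and BMF, which promotes it, rose by 4.61 ± 0.19. Of the 20 measured members 4 rose and 3 fell, a share near the background, and 9 rose with a random block and 7 without LPS replicate 1, while 5 fell with array weights, median centring or without PBD150 plus LPS replicate 3. Of 22 HMG proteins and chromatin enzymes 12 fell and none rose (median -1.07). HMGB2, a DNA-bending protein of dividing cells, had the largest fall of all named genes, from 12.07, 12.47 and 12.65 to 5.92, 4.51 and 6.81, which is -6.65 ± 0.60. HELLS fell by 3.67, UHRF1, which guides maintenance methylation, fell by 3.40 and DNMT1 fell by 2.49, whereas DNMT3A and EZH2 were at 0.22 and -0.57 and did not pass. Stress response genes were mixed: 7 of 26 rose (12 with a random block) and 4 fell (7 with a random block or array weights). The share that fell was near the background. DDIT4, an inhibitor of mTOR, was at 3.41 and the serine synthesis enzymes PSAT1 and PHGDH were at -2.49 and -1.70.

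**Figure D4:**
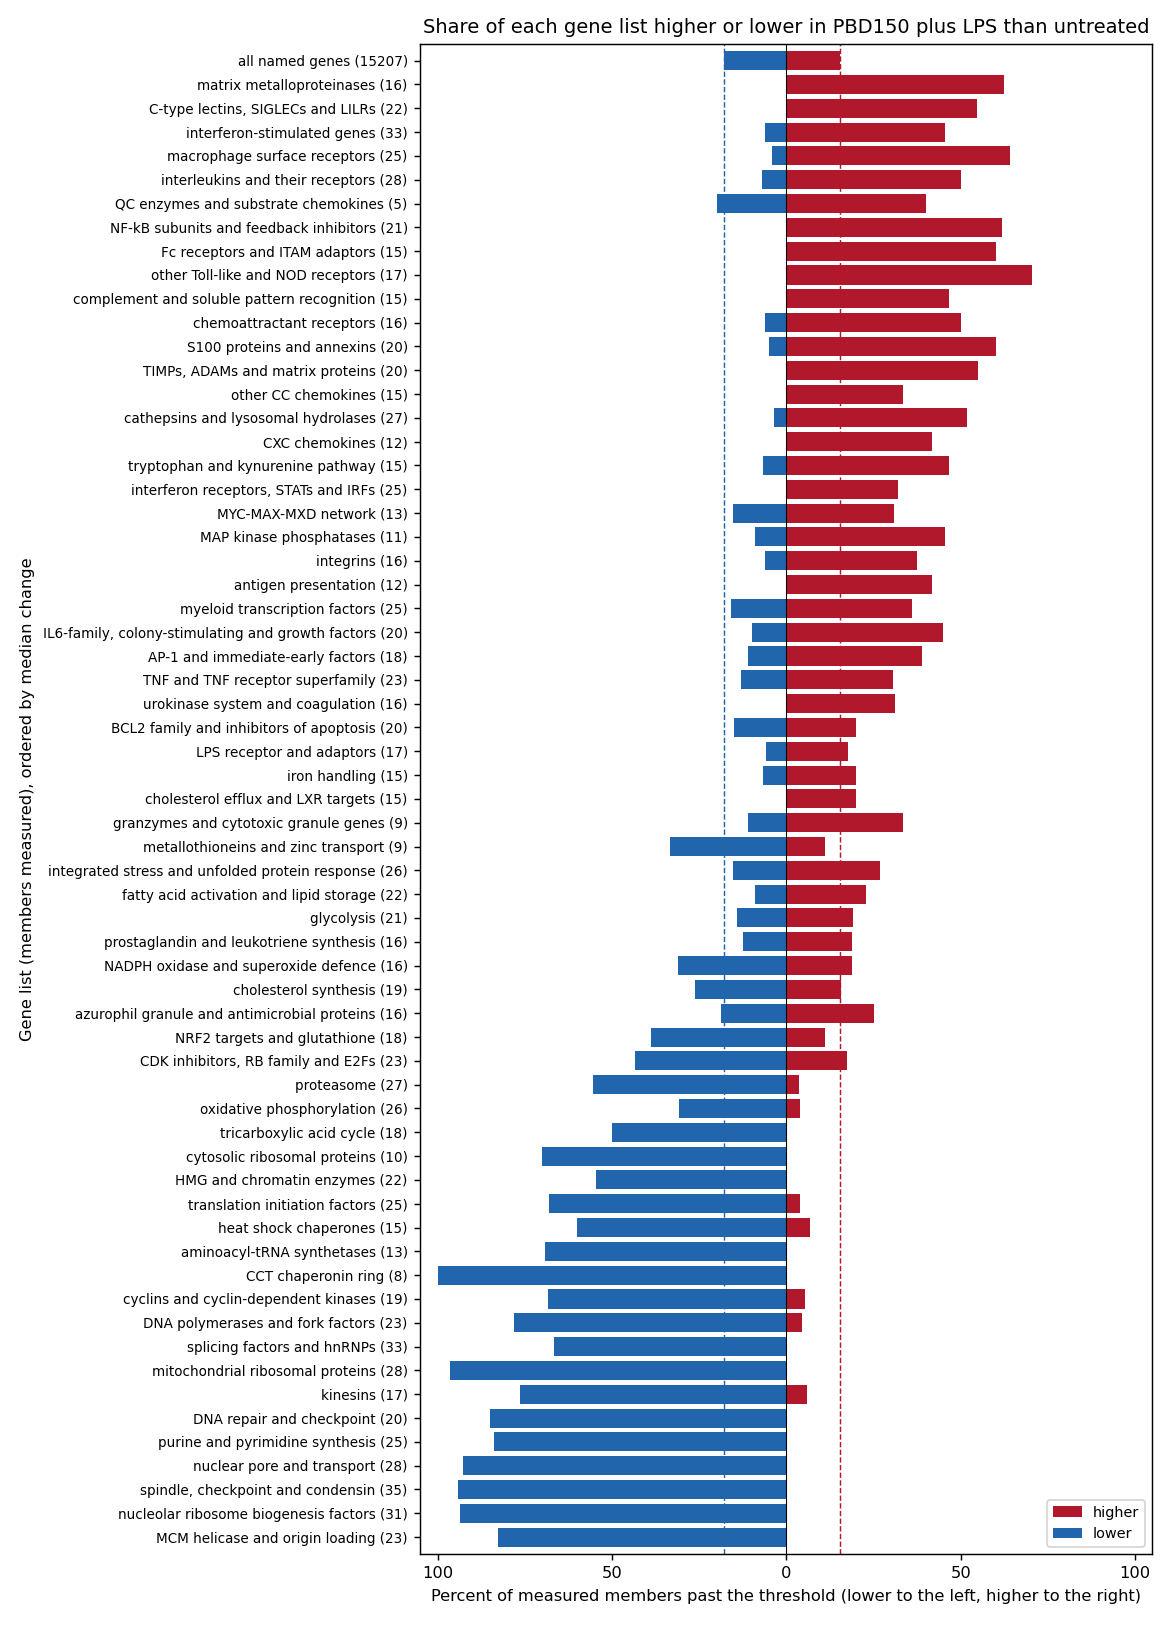
Percent of measured members of each gene list that rose (red, to the right) or fell (blue, to the left) in PBD150 plus LPS against untreated cells, lists ordered by median change, with the number measured in parentheses. Dashed lines mark the shares of all 15207 named genes, 15.3% higher and 17.9% lower; the CCT ring reaches 8 of 8 lower and the matrix metalloproteinases 10 of 16 higher.

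**Figure D5:**
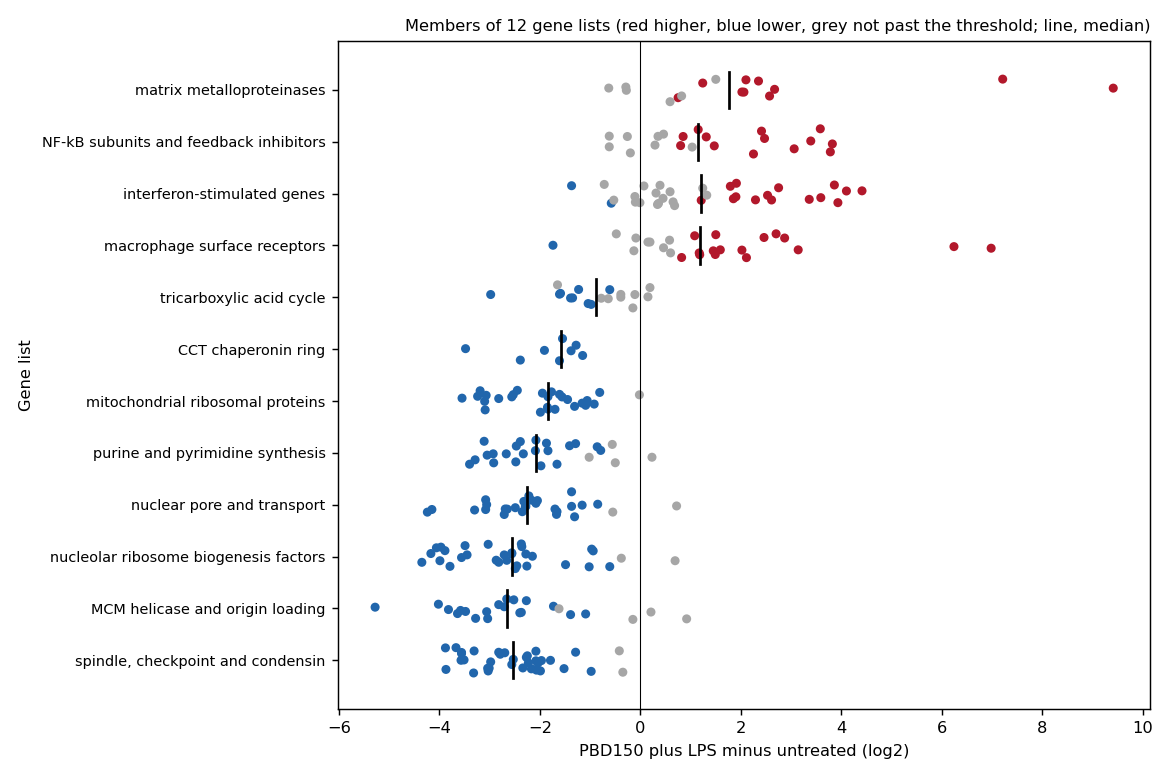
Change of each measured member (horizontal axis, log2, PBD150 plus LPS minus untreated) of 12 gene lists (vertical axis); red points rose, blue points fell, grey points did not pass and the black line is the median. Medians run from -2.66 for MCM and origin genes to 1.76 for matrix metalloproteinases.

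A few of the largest changes belonged to no list. FNBP4, a formin-binding protein, was above noise on 1 of 9 untreated arrays and rose by 7.55 ± 0.48, with technical arrays of a culture up to 7.88 apart, and NCF1C, a pseudogene of an NADPH oxidase subunit whose probe may also read NCF1, rose by 6.45 ± 0.35. PALM2AKAP2 fell by 5.22 ± 0.53, the mitochondrial folate carrier SLC25A32 fell by 4.56, the fatty acid transporter SLC27A2 fell by 4.54 and NAT8L fell by 4.71. With PBD150 plus LPS PALM2AKAP2 was above noise on 2 of 9 arrays and SLC27A2 and NAT8L on 1 of 9 each, so these sizes rest on values near background. RAD54B, a recombination helicase, and TIMM9, a chaperone of mitochondrial import, were above noise on 0 of 9 PBD150 plus LPS arrays and fell at least 5.14-fold and 11.9-fold, and the other probe of TIMM9 gave -1.08. Of the 786 genes with more than 1 probe that rose or fell, 602 had every other probe on the same side of 0.

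The comparison with untreated cells shares its PBD150 plus LPS arrays with a comparison against LPS alone, and the LPS group shares the untreated controls, so the values are given side by side only. Against LPS alone 0 named genes rose and 0 fell by limma (0% in each direction), with a smallest adjusted p of 0.414 over probes. At an unadjusted p under 0.05 there were 633 probes higher and 949 lower, 5.11% of all probes against 5% for p-values with no change anywhere. This unadjusted count depended on the setting. It was 1867 and 1909 without PBD150 plus LPS replicate 3, and 552 and 712 without PBD150 plus LPS replicate 2. With array weights it was 1068 and 1561, and with a random block for each culture 952 and 1153. At an adjusted p under 0.05, 1 probe was higher and 13 were lower with the random block. MMP9 was at -0.14 ± 0.31 against LPS alone, SPP1 at -0.37 ± 0.22 and CDKN1A at 0.33 ± 0.32. CD14 was at the top of the scale on 9 of 9 arrays with LPS alone and 8 of 9 with PBD150 plus LPS, so no difference can be read there. QPCTL was at 0.38 ± 0.30, CCL2 at -0.39 ± 0.32 and CCL8 at -1.27 ± 0.48 (adjusted p = 0.906 for each). CCL8 lay at 11.10, 12.33 and 13.29 with LPS alone, so the groups overlap. PUS7 was above noise on 8 of 9 arrays with LPS alone and 2 of 9 with PBD150 plus LPS, and MYC on 3 of 9 and 1 of 9; neither difference passed (adjusted p = 0.668 and 0.884). Median changes from untreated cells were 1.21 with PBD150 plus LPS and 1.58 with LPS alone for interferon-stimulated genes, and -2.56 and -2.38 for ribosome biogenesis. They were 1.76 and 1.44 for matrix metalloproteinases and -2.53 and -2.26 for spindle genes. With n = 3 in each group a missed threshold does not show that the groups were alike.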

How the data were processed

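RNA of 9 U937 cultures was hybridised to 27 one-colour Phalanx Human OneArray arrays with Cy5, per the labels. The deposited values are linear intensities, with some below 0; their scanner, scaling and background correction: not given in the sources used here. Of 30968 probes, 17397 had 1 gene symbol, 13571 none and 0 several; 2645 symbols were updated, 14670 were current and 82 found no match.

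After a floor of 1, values were put on a log2 scale, quantile normalisation was run over all 27 arrays, and the 3 arrays of a culture were averaged. A group-means model over 9 cultures was fitted with limma 3.58.1 in R 4.3.3, tested two-sided with Benjamini-Hochberg adjustment over all probes at 0.05; the LPS group helped to estimate the spread. The fitting code was tested on simulated data. The noise limit was 3 times the root mean square of an array's negative values, and the top of the scale 99% of its maximum. A fold is a bound ("at least") where a group had no array above noise or every array at the top. Their number limits the precision, and no dates or slides were given to test as batches.

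Members and gene lists were chosen with earlier results of these data known. Named were the 15 largest rises and falls among bright genes without overlap, and QC genes and substrates. Others were taken from the 6 largest called members of each list in each direction, opposing members and members that did not pass. Not every such member is named, and no rule fixed which of them were. Markers, genes with disagreeing arrays, and CASP1, CD44, CD163, IFIT1, IL10, IL1A, NCL, NFKB2, NFKBIA, NOLC1, PCNA and PLK1 were named after their values were seen. Promoters are RefSeq's, 250 bases before to 50 after a start, and 12207 named genes had one. For each motif's list the called member with the largest change whose promoter held the motif is printed. Members on a chromosome that was set aside were not considered for printing or for the naming of motif holders. Alternatives were other scalings, a pseudocount of 16, array weights, blocks, probe filters and leaving out each replicate; the median of a culture's arrays was added after seeing the data. Some items are not reported here.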

Additional observations from a re-analysis of the deposited data

How the results depend on the processing

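Of 288 named genes that rose or fell, 288 kept their direction and 261 their call under every one of 20 alternatives. The test of a change of over 2-fold was not among these 20. Over all probes, counts were 3887 higher and 4174 lower. They were 6373 and 5775 with array weights, 5775 and 5185 with a random block for each culture, 4875 and 4872 with a pseudocount of 16, and 732 and 1040 when a change of over 2-fold was tested. Leaving out each replicate gave 2597 to 5051 higher and 2964 to 4805 lower. The median of the 3 arrays of a culture, chosen after seeing the data, gave 3583 and 3789. Against LPS alone 0 probes passed either way, and with a random block 1 was higher and 13 lower. The labels do not say whether cultures with the same replicate number belong together, and the main fit did not pair them. Same-numbered deviations from the group means correlated at -0.01, -0.05 and 0.04, which with 3 cultures in each group cannot settle it. The replicate block gave 2895 higher and 3433 lower. Under that block FOS, GNLY, HK3, ITGA4, KLF4, MMP12, MX2, NFKB2, POLE, QPCTL, SERPINB2, SLC39A1, TGFB1 and VEGFA no longer passed. Genes that did not pass took the other sign under some alternatives, most of them near 0; with the mean of all probes the change of sign comes from the other probes of the gene, and otherwise the cause was not tested. With array weights these were CD3D at -0.11, HMOX1 at -0.00, HSPB1 at 0.01, NOD1 at 0.03 and SPI1 at -0.04. On values as deposited these were HSPB1 at 0.24, MRPL16 at 0.17 and NOD1 at 0.07. With the mean of all probes these were BRCA2 at -0.44, CD3D at -0.10, RELA at -0.31, SPI1 at -0.28 and UTP20 at -2.06. With median centring these were ATM at -0.18, CD3D at -0.19, CD74 at -0.10, CDC6 at -0.10, E2F1 at -0.16, HMOX1 at -0.01 and MAX at -0.18. With the median of the arrays these were CD3D at -0.23 and CD74 at -0.04. With a pseudocount of 16 these were CDC6 at -0.00. Leaving out each replicate gave ATM -0.05 to 0.12, CD3D -0.21 to 0.18, CD74 -0.02 to 0.08, CDC6 -0.10 to 0.47, CX3CL1 -0.07 to 0.30, E2F1 -0.10 to 0.39, HMOX1 -0.02 to 0.18, HSPB1 -0.15 to 0.03, MAX -0.03 to 0.05, MRPL16 -0.22 to 0.20, NOD1 -0.16 to 0.08 and SPI1 -0.09 to 0.29. Bright probes at the top of the scale understate a change. For dim probes near the noise limit its size is uncertain and can be overstated. For KIF15 the fitted fold was 50.8, where the bound was at least 8.57.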
